A study of Mus musculus with 16 samples.

Results

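Nonproductive receptor contigs are assembled T cell receptor transcripts that the deposited tables do not call productive, that is, that were not read as coding for a complete receptor chain. They were chosen as all contigs of the TRA (α) or TRB (β) chain whose productive field was not True, and all of these were listed as False. There were 3372 of them, 2458 in lymph node and 914 in skin, beside 11026 productive contigs of the same chains and among 14472 contigs in all. The cells were CD8+CD44+ T cells, which are antigen-experienced cytotoxic T cells, sorted from C57BL/6 mice aged 16 weeks with melanoma-associated vitiligo, 45 days after tumor surgery. One group was the tumor-draining lymph node and the other was matched skin with vitiligo, so both groups shared strain, disease, age and day. The node was dissociated mechanically and the skin with enzymes. How many mice were pooled is not stated in the labels, and each tissue was 1 receptor library sequenced over 4 lanes. No difference therefore has a replicate check, no test was made, and all intervals are exact 95% intervals that cover counting error only.

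A T cell builds each receptor chain by joining gene segments, with bases lost and added at the junctions, so that many joins are out of frame. At the TRB locus a D segment first joins a J segment and a V segment is added later, and a cell whose first allele fails can try the other. The TRB locus holds a pair of clusters, each with its own D, its own set of J segments (TRBJ1 or TRBJ2) and its own constant gene (TRBC1 or TRBC2). TRA has no D segment, rearranges on both alleles, and can rearrange again by joining a V farther upstream to a J farther downstream. Transcripts with early stop codons are degraded by nonsense-mediated decay, which keeps failed joins at low levels in RNA. Unless a later rearrangement replaces it, a failed join stays in the genome and is inherited by every cell of a clone.

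Examples of where the annotated CDR3 of a nonproductive contig opens are given first. TRBV31 and TRBV15 are V segments that were over-represented among nonproductive TRB contigs. In each set the first line is the end of the germline V segment from GENCODE M21, with the conserved cysteine codon and the codon after it in capitals. The second line is the CDR3 of the productive contig with most UMIs (unique molecular identifiers, each marking 1 captured RNA molecule), with the same bases in capitals. The third line is the CDR3 of a nonproductive contig, with the first 9 bases in capitals.
TRBV31 germline: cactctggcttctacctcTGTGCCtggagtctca
TRBV31 productive CDR3: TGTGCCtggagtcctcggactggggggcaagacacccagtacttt
TRBV31 nonproductive CDR3: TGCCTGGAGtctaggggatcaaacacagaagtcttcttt
TRBV15 germline: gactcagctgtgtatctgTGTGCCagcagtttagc
TRBV15 productive CDR3: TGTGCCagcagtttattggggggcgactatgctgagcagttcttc
TRBV15 nonproductive CDR3: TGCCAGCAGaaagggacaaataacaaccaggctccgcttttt
In both nonproductive CDR3s the capitals match the germline V segment from 2 bases after the first base of the cysteine codon, so the annotated CDR3 opens in another reading frame. The TRBV31 example ended in TRBJ1-1 with 8 UMIs, and the TRBV15 example in TRBJ1-5 with 6 UMIs, both in lymph node. TRBV31 lies at chr6:41557691-41558452 of mm10 on the minus strand, and TRBV15 at chr6:41141188-41141658 on the plus strand.

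The germline J segments that were most over- and most under-represented among TRB contigs without a V, over both tissues, are shown for reference, since such contigs carry no annotated CDR3.
TRBJ2-1: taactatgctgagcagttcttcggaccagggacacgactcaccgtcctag
TRBJ1-1: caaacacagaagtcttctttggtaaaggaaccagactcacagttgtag
They lie at chr6:41542754-41542803 and chr6:41533864-41533911, each the first J of its cluster, downstream of TRBD2 and TRBD1 by 577 and 651 bases.

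The lymph node table held 9927 contigs of 3744 barcodes with a median of 13 UMIs per barcode (range 2 to 100), and the skin table held 4545 contigs of 1986 barcodes with a median of 7 (range 2 to 49). Reads per UMI were 149 and 442. The tables shared 12 barcodes and no barcode with the same CDR3. Barcodes with 2 or more productive TRB contigs, which can mark 2 cells, numbered 394 in lymph node and 72 in skin. In the lymph node gene table Cd3e had a UMI in 95.3% of cells with a contig, Cd8a in 83.0% and Cd44, a gene of the sort, in 26.0%. Summed CD4 T cell, γδ T cell, B cell and myeloid markers lay between 2.06 and 27.0 CPM (UMI counts scaled to a total of 1000000 per side), with 1 marker of each type in the table, against at least 4695 for the CD8 markers. Skin RNA was not analysed here.

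Nonproductive contigs made up a similar part of the TRA chain in both tissues and a larger part of the TRB chain in lymph node than in skin. For TRA they were 872 of 4288 contigs in lymph node (20.3%, 19.1 to 21.6) and 427 of 2198 in skin (19.4%, 17.8 to 21.1). For TRB they were 1586 of 5593 in lymph node (28.4%, 27.2 to 29.6) and 487 of 2319 in skin (21%, 19.4 to 22.7). The TRB intervals of the tissues did not overlap and the TRA intervals did. With each distinct rearrangement counted once, where contigs without a CDR3 count once per V, J and length, the TRB order turned, to 21.7% in lymph node and 31.4% in skin. This count merges contigs without a V from different cells when they share J and length. It also keeps copies of 1 join apart when their lengths differ, whereas productive copies merge by CDR3. The turned order therefore does not settle which tissue had more. The tissues differed in depth and dissociation, and these cannot be told apart from the tissue.

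The chains differed more in the kind of nonproductive contig than in its number. Most nonproductive TRA contigs were complete joins: 91.6% (89.6 to 93.4) in lymph node and 92.3% (89.3 to 94.6) in skin had both a V and a J. For TRB this held for 28.8% (26.5 to 31.0) and 27.7% (23.8 to 31.9). The remainder of TRB was almost wholly J segments without a V, with 1115 contigs in lymph node (70.3%, 68.0 to 72.5) and 342 in skin (70.2%, 65.9 to 74.3). TRA had only 46 and 26 such contigs. The opposite kind, a V without a J, was found in 27 TRA and 15 TRB contigs of lymph node and in 7 and 10 of skin.

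**Figure D1:**
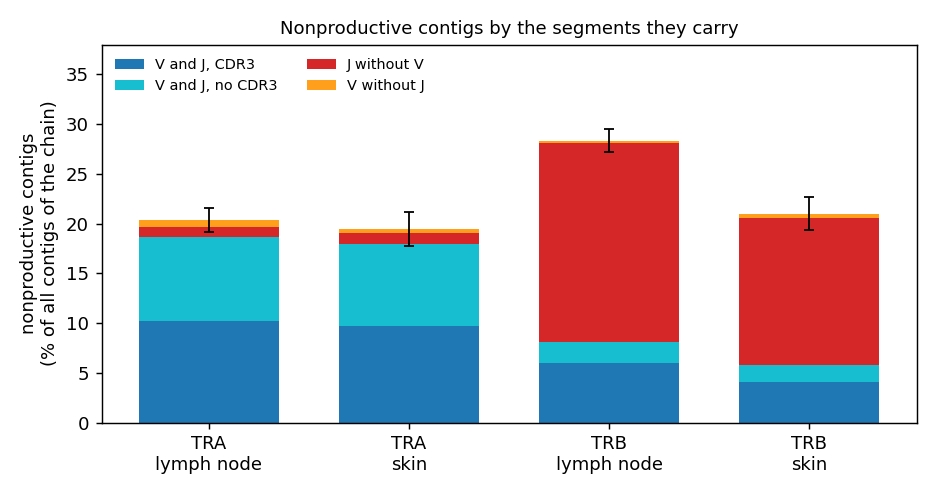
Nonproductive contigs as a percentage of all contigs of the chain (vertical axis), for each chain and tissue, divided by the segments they carry; error bars are exact 95% intervals of the whole share and cover counting error only. J segments without a V fill most of both TRB bars and little of the TRA bars.

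The full-length flag followed the same division. All productive contigs were full length. Of nonproductive TRA contigs 87.4% (85.0 to 89.5) in lymph node and 91.6% (88.5 to 94.0) in skin were full length, and of nonproductive TRB contigs 28.1% (25.9 to 30.3) and 27.3% (23.4 to 31.5). No contig without a V or without a J was full length. J segments without a V were short, at a median of 367 bases in lymph node and 368 in skin against 552 and 551 for productive TRB contigs.

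Nonproductive contigs carried fewer UMIs than productive ones in both chains and tissues. For TRA the median was 2 against 3 UMIs in each tissue, and 42.7% (39.4 to 46.0) of nonproductive contigs in lymph node rested on 1 UMI against 13.1% (12 to 14.3) of productive contigs. In skin these shares were 48% (43.2 to 52.9) and 18.1% (16.3 to 19.9). For TRB the median was 3 against 7 UMIs in lymph node and 2 against 4 in skin.

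Among TRB contigs, J segments without a V stood between complete nonproductive joins and productive contigs. In lymph node the mean was 4.61 UMIs for a J without a V, 2.60 for a complete nonproductive join with a CDR3, 2.92 for one without a CDR3 and 8.02 for productive contigs. In skin these means were 2.61, 2.04, 2.10 and 4.44. The skin values of the nonproductive kinds lay close together at this depth.

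**Figure D2:**
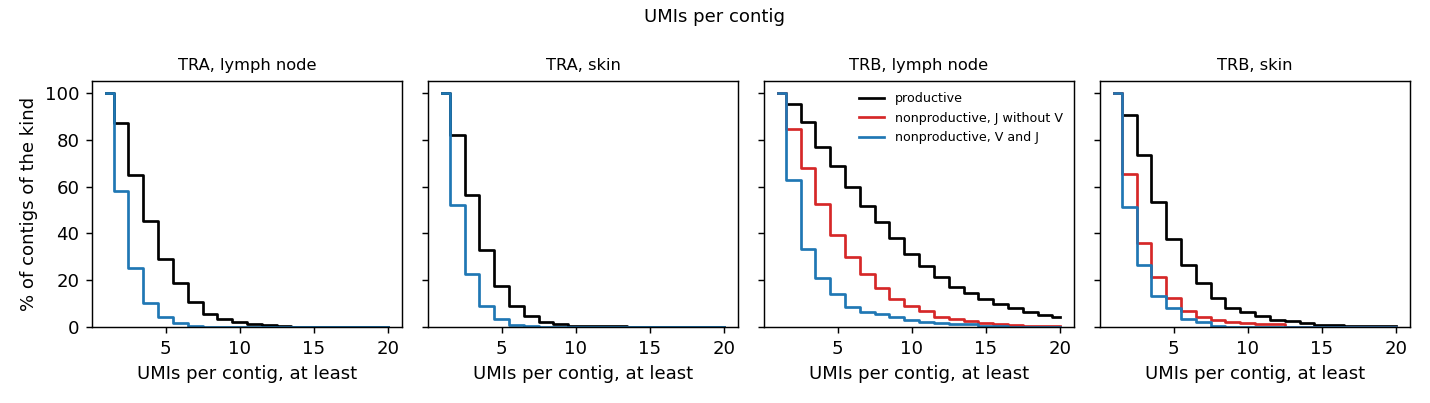
Percentage of contigs (vertical axis) with at least the number of UMIs on the horizontal axis, for productive contigs (black), nonproductive contigs with a V and a J (blue) and, for TRB, J segments without a V (red). The red curve of lymph node TRB lies between the other curves, and for every kind shown fewer nonproductive than productive contigs had 2 or more UMIs.

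Within cells, where both contigs share the depth of the barcode, the nonproductive contig was also more often the one with fewer UMIs. In lymph node barcodes with both kinds, the nonproductive contig with most UMIs had fewer than the productive one in 391 of 615 for TRA (63.6%, 59.6 to 67.4), an equal number in 21.1% and more in 15.3%. For TRB it had fewer in 842 of 1230 (68.5%, 65.8 to 71.0), an equal number in 8.21% and more in 23.3%. In skin it had fewer in 59.3% of 285 for TRA and in 58.1% of 341 for TRB. Complete nonproductive TRB joins of lymph node were the weaker contig in 84.0% (79.9 to 87.5) of 387 barcodes, and J segments without a V in 63.7% (60.5 to 66.9) of 910. The intervals of these kinds did not overlap in lymph node, and in skin, at 55.6% (44.7 to 66.0) and 59.5% (53.2 to 65.5), they did.

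Barcodes with both a productive and a nonproductive contig of the same chain were common. For TRA they were 615 of 3197 barcodes with that chain in lymph node (19.2%, 17.9 to 20.6) and 285 of 1720 in skin (16.6%, 14.8 to 18.4). For TRB they were 1230 of 3660 (33.6%, 32.1 to 35.2) and 341 of 1849 (18.4%, 16.7 to 20.3). Over both chains, 1799 of 3744 lymph node barcodes (48.1%, 46.4 to 49.7) and 740 of 1986 skin barcodes (37.3%, 35.1 to 39.4) held at least 1 nonproductive contig, and all of them also held a productive contig of a chain. Only nonproductive TRA was found in 204 and 114 barcodes, and only nonproductive TRB in 47 and 89.

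In each class of productive TRB depth, a larger share of lymph node than of skin barcodes held a nonproductive TRB. The intervals of the tissues overlapped only in the lowest class, and the classes do not tell tissue and dissociation apart. With 1 to 2 productive UMIs a nonproductive TRB was found in 37.5% (32.2 to 43.0) of lymph node and 28.0% (23.9 to 32.5) of skin barcodes. With 3 to 5 the shares were 34.7% (31.7 to 37.8) and 17.5% (15 to 20.3), and with 6 to 10 they were 37.1% (34.3 to 39.9) and 14.9% (11.5 to 18.7). With 11 or more they were 29.2% (26.6 to 32.0) and 15.2% (8.74 to 23.8). For TRA the lymph node share went from 23.8% in the lowest class to 9 of 98 (9.18%, 4.29 to 16.7) in the highest. In skin it went from 21.1% (17.9 to 24.5) to 1 of 23 (4.35%, 0.11 to 21.9), and these intervals overlapped.

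The kinds were also counted in barcodes with exactly 1 productive TRB contig. How many mixed cells remain among these was not tested. Of 3219 in lymph node, 737 had only J segments without a V beside it, 264 only complete nonproductive joins and 65 both, together 33.1% (31.5 to 34.8). Of 1688 in skin, 242, 78 and 10 did, together 19.5% (17.7 to 21.5).

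The J segment without a V was hardly ever the J of the productive TRB chain of the same cell. It was the same in 2 of 657 lymph node barcodes with 1 contig of each kind (0.304%, 0.0369 to 1.10), whereas 9.77% of pairs drawn from different barcodes shared a J. In skin it was the same in 0 of 230, which allows a share of up to 1.30%, against 7.76% of pairs. Whether the contig calling would keep a second contig with the same J was not tested. The constant gene, where annotated, belonged to the cluster of the J in all 1105 lymph node and 338 skin contigs of this kind, as it did in all 3967 and 1816 productive TRB contigs.

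Cells whose productive chain used the TRBJ1 cluster carried a J without a V more often than cells whose productive chain used TRBJ2. In lymph node the shares were 415 of 1077 (38.5%, 35.6 to 41.5) and 387 of 2142 (18.1%, 16.5 to 19.8). In skin they were 149 of 825 (18.1%, 15.5 to 20.9) and 103 of 863 (11.9%, 9.85 to 14.3). The intervals of the clusters did not overlap in either tissue, but they count cells of a clone as separate. In skin the largest clone alone held 88 cells with a productive TRBJ1-2. The near absence of the same J is also part of these shares. For complete nonproductive TRB joins the intervals of the clusters overlapped, at 10.7% (8.90 to 12.7) and 9.99% (8.75 to 11.3) in lymph node and 4.24% (2.97 to 5.85) and 6.14% (4.63 to 7.96) in skin.

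The J without a V also lay more often in the TRBJ2 cluster when the productive chain used TRBJ1. It did in 255 of 315 lymph node barcodes with a productive TRBJ1 (81.0%, 76.2 to 85.1) and in 229 of 342 with a productive TRBJ2 (67.0%, 61.7 to 71.9). In skin it did in 102 of 132 (77.3%, 69.2 to 84.1) and 49 of 98 (50%, 39.7 to 60.3). These barcodes had 1 contig of each kind, and the near absence of the same J is part of the second share in each tissue.

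J segments without a V were drawn unevenly from the 12 TRBJ segments. In both tissues 2 segments (16.7%) had a share at least 1.5-fold above that in productive contigs and 5 (41.7%) a share at least 1.5-fold below. TRBJ2-1, printed above, was the most used, with 340 of 1115 contigs in lymph node (30.5%, 27.8 to 33.3) against 13.6% (12.5 to 14.7) of productive contigs, a ratio of 2.25 (1.96 to 2.58). In skin it had 103 of 342 (30.1%, 25.3 to 35.3) against 9.28% (7.99 to 10.7), a ratio of 3.25 (2.52 to 4.17). TRBJ1-3 was at 8.07% against 4.47% in lymph node and at 10.5% against 4.53% in skin.

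TRBJ1-1 stood at the other end, although it is the first J of its cluster as TRBJ2-1 is of the other. It had 27 contigs without a V in lymph node (2.42%, 1.60 to 3.50) against 11.1% (10.1 to 12.1) of productive contigs, and 8 in skin (2.34%, 1.02 to 4.56) against 19.1% (17.3 to 20.9). The ratios were 0.218 (0.142 to 0.322) and 0.123 (0.0526 to 0.245). TRBJ1-4, TRBJ2-2, TRBJ2-4 and TRBJ2-5 were the other 4 segments at least 1.5-fold lower in both tissues, with ratios between 0.321 and 0.659 in lymph node and between 0.150 and 0.439 in skin. TRBJ2-7, the most used productive J of the TRBJ2 cluster, was similar in both kinds, at 22.4% and 21.6% in lymph node and 17.5% and 13.5% in skin. One lymph node contig carried TRBJ1-7, which no productive contig used.

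**Figure D3:**
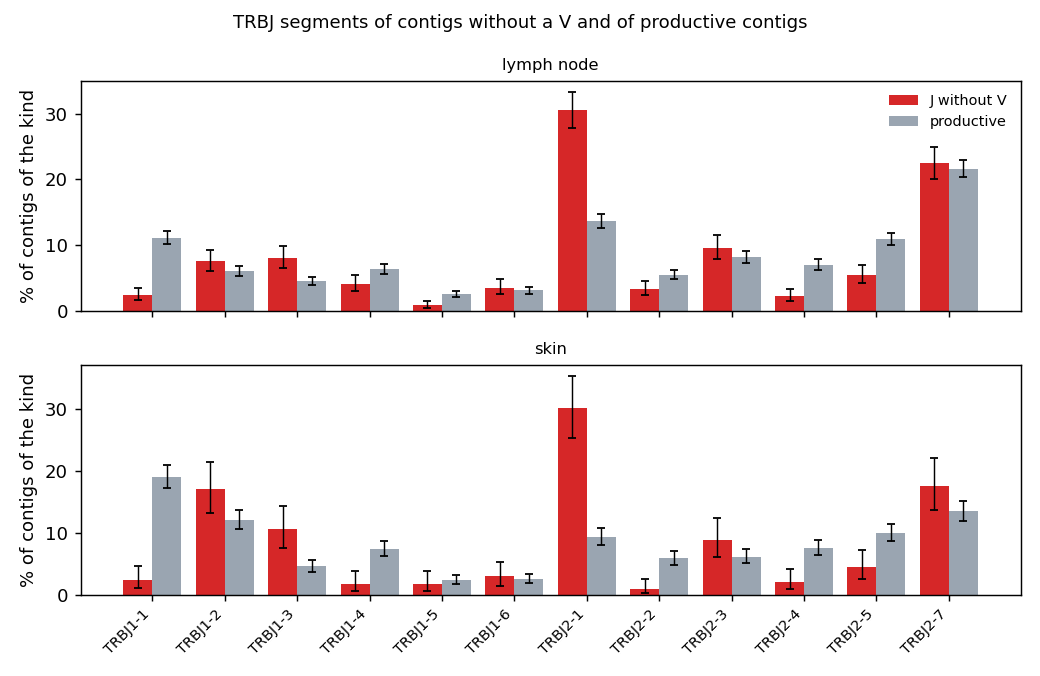
Share of each TRBJ segment (vertical axis, percentage of contigs of the kind) among TRB contigs with a J and no V (red) and among productive TRB contigs (grey), in lymph node (top) and skin (bottom), with exact 95% intervals for counting error; the single TRBJ1-7 contig is not drawn. TRBJ2-1 stands above its productive share and TRBJ1-1 below it in both tissues.

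The contigs with TRBJ2-1 and no V fell mainly into narrow ranges of length. The pair of 13-base windows that held most of the lymph node contigs were found first. Of 340 lymph node contigs 118 were 325 to 337 bases long and 120 were 352 to 364, while 9 lay between. In skin, which was not used to choose the windows, 37 and 43 of 103 lay in them and 6 between. The contig sequences themselves were not analysed here, so what lies upstream of the J is not known. The few TRA contigs with a J and no V were led by TRAJ26, with 12 of 46 in lymph node (26.1%, 14.3 to 41.1) and 9 of 26 in skin (34.6%, 17.2 to 55.7), against 5.68% and 3.22% of productive contigs. TRAJ41 had 6 of the 46 in lymph node and 0 of 3416 productive contigs there, which allows a productive share of up to 0.0878%.

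Contigs with a V and no J were too few for shares. Where a constant gene was annotated, all 12 TRB contigs of this kind in lymph node and all 10 in skin had TRBC1. In lymph node TRBV10 and the joint name TRBV12-2+TRBV13-2 had 3 each of these, and in skin TRBV19 had 5 and TRBV10 had 4.

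V segment use differed between nonproductive contigs with a V and a J and productive contigs. Segments were compared by their share of each kind with both tissues summed, among those with at least 20 contigs and the same direction in both tissues. Of 21 TRBV segments 14 (66.7%) had the same direction in both tissues, of which 4 (19%) were at least 1.5-fold higher in nonproductive contigs and 5 (23.8%) at least 1.5-fold lower. Of 76 TRAV segments 46 (60.5%) had the same direction, and 18 (23.7%) were higher and 17 (22.4%) lower by that rule. The mouse TRAV region is partly duplicated, and a contig may be assigned to the wrong copy within a TRAV family.

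TRBV31, the only V segment that lies downstream of the TRB constant genes and is joined by inversion, held the most nonproductive TRB contigs. It had 48 of 456 in lymph node (10.5%, 7.86 to 13.7) against 2.52% (2.06 to 3.05) of productive contigs, and 18 of 135 in skin (13.3%, 8.10 to 20.3) against 2.51% (1.84 to 3.34). The ratio over both tissues was 4.44 (3.27 to 5.97), and 3.36 (2.42 to 4.62) with each distinct rearrangement counted once.

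TRBV23 had the highest ratio of the TRBV segments and was rare among productive contigs. It was in 36 nonproductive and 18 productive contigs over both tissues, a ratio of 19.8 (10.9 to 37.0). Its shares were 5.92% against 0.324% in lymph node and 6.67% against 0.273% in skin. TRBV15 was in 39 and 176 contigs, at a ratio of 2.19 (1.51 to 3.11). TRBV5, at a ratio of 1.73 (1.20 to 2.44), was the remaining segment above 1.5-fold.

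The lowest TRBV ratios belonged to segments common among productive contigs. Contigs assigned jointly to TRBV12-2 and TRBV13-2 had a ratio of 0.313 (0.170 to 0.531), TRBV16 of 0.410 (0.232 to 0.674) and TRBV14 of 0.439 (0.224 to 0.780). The other TRBV segments among the 5 with most nonproductive contigs of a tissue were TRBV1, TRBV10, TRBV12-1 and TRBV19, with ratios from 0.861 for TRBV19 to 1.48 for TRBV1. TRBV10 is annotated as a pseudogene in GENCODE M21, although 335 productive contigs used it.

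**Figure D4:**
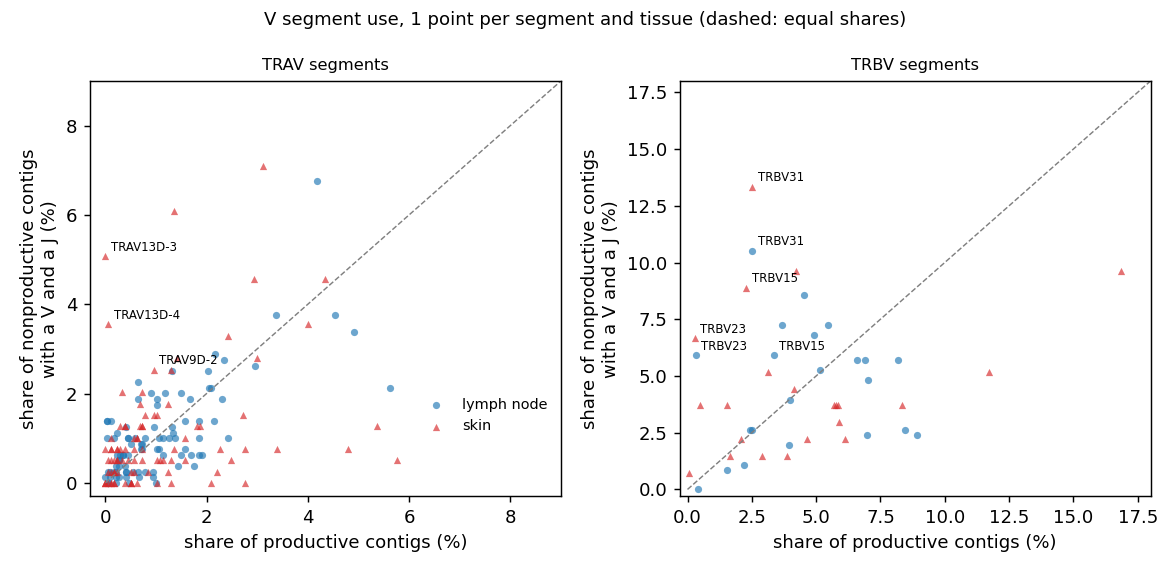
Share of each V segment among productive contigs (horizontal axis, %) against its share among nonproductive contigs with a V and a J (vertical axis, %), for TRAV (left) and TRBV (right), with 1 point per segment and tissue and no error bars drawn. Named segments have the highest ratios over both tissues (for TRAV the skin points are named), and TRBV31 lies at 10.5% and 13.3% of nonproductive against 2.5% of productive contigs.

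Among TRAV segments, TRAV13D-3 was nearly confined to nonproductive contigs. It was in 31 nonproductive contigs and 1 productive contig, a ratio of 135 (22.5 to 5493). In skin it was in 20 of 394 nonproductive contigs (5.08%, 3.13 to 7.73) and 0 of 1771 productive ones, which allows up to 0.169%, and in lymph node in 11 of 799 (1.38%, 0.689 to 2.45) and 1 of 3416. Of these contigs 8 in lymph node and 15 in skin had no CDR3 annotated. The 20 skin contigs held 4 V and J combinations, and 9 belonged to a single clone described further on. TRAV13D-4 was in 22 nonproductive and 7 productive contigs (13.7, 5.64 to 37.9), and its 14 skin contigs held 2 combinations. TRAV13D-3 lies at chr14:53032848-53033419 and TRAV13D-4 at chr14:53072763-53073274, and both are annotated as V genes.

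TRAV9D-2 was in 21 contigs of each kind, a ratio of 4.35 (2.26 to 8.37), but its 10 skin contigs were 1 V and J combination of ordinary CDR3 ends, taken up below. TRAV7D-3 was absent from the 1193 nonproductive TRA contigs with a V and a J and was in 43 productive ones, at least 3.30-fold lower against a floor of 3 counts over both tissues. A further nonproductive contig of lymph node carried it without a J. TRAV7-6 and TRAV3-4 were each in 1 nonproductive contig and in 34 and 26 productive ones, with ratios of 0.128 (0.00315 to 0.762) and 0.167 (0.00408 to 1.02). By number, TRAV3D-3 held the most nonproductive TRA contigs, with 54 in lymph node and 18 in skin (ratio 1.42, 1.07 to 1.86). TRAV6-7-DV9 was first in skin with 28, which held 6 V and J combinations. Of these, 1 combination was in 18 cells of a single clone described further on. The other TRAV segments among the 5 with most contigs of a tissue were TRAV12-2, TRAV12D-2, TRAV13-1, TRAV13D-2, TRAV6-6 and TRAV8N-2, with ratios between 0.696 and 2.80.

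J segments of complete joins were compared in the same way. Of 43 TRAJ segments 30 (69.8%) had the same direction in both tissues, of which 9 (20.9%) were at least 1.5-fold higher in nonproductive contigs and 10 (23.3%) at least 1.5-fold lower. The highest were TRAJ2 (2.97, 1.35 to 6.35), TRAJ18 (2.21, 1.36 to 3.52) and TRAJ35 (2.11, 1.11 to 3.87), and the lowest TRAJ52 (0.362, 0.129 to 0.828), TRAJ58 (0.417, 0.162 to 0.903) and TRAJ45 (0.477, 0.308 to 0.711). With each distinct rearrangement counted once TRAJ18 was at 1.31 (0.731 to 2.25) and TRAJ45 at 0.852 (0.522 to 1.34). The TRAJ segments with most nonproductive contigs were TRAJ32 in lymph node, with 64, and TRAJ49 in skin, with 37, of which 18 and 9 came from 2 clones.

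For TRBJ 3 of 12 segments (25%) had the same direction in both tissues, with 1 (8.33%) at least 1.5-fold higher and 1 (8.33%) at least 1.5-fold lower. With each distinct rearrangement counted once no segment was 1.5-fold apart, with TRBJ2-3 at 1.43 and TRBJ1-1 at 0.738. With every contig counted, TRBJ2-3 was at 1.51 (1.15 to 1.96), TRBJ2-2 at 1.22 (0.853 to 1.69) and TRBJ1-1 at 0.597 (0.437 to 0.800). TRBJ2-1, which led the J segments without a V, was at 1.05 (0.819 to 1.33) among complete joins.

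Most complete joins with an annotated CDR3 did not look like ordinary CDR3s at both ends. An end was called usual when its 6 bases were seen in at least 5% of productive contigs with the same V or J. Productive contigs thus set the rule, and their own high shares follow in large part from it. For a V with few productive contigs the rule rests on few sequences. Both ends were usual in 158 of 437 nonproductive TRA CDR3s of lymph node (36.2%, 31.6 to 40.9) and 72 of 214 of skin (33.6%, 27.3 to 40.4), against 98.4% and 99.3% of productive ones. For TRB both were usual in 160 of 336 (47.6%, 42.2 to 53.1) and 41 of 94 (43.6%, 33.4 to 54.2), against 99.8% and 100%. An unusual start with a usual J end was the other main class, at 41.4% and 52.8% for TRA and 40.5% and 42.6% for TRB.

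Where the start was unusual, its first 9 bases were matched to the germline V segment. A match was found for 136 TRA CDR3s in lymph node and 97 in skin, and for 97 and 37 of TRB. None was in the frame of the conserved cysteine, which follows in large part from the choice of unusual starts. The frame was displaced by 2 bases, counted modulo 3, in 80 and 69 of the TRA and 77 and 33 of the TRB CDR3s, and by 1 base in the others. The displacement shared by most contigs was 8 bases upstream of the cysteine codon for TRAV3D-3 (38 contigs), 2 bases into it for TRBV31 (36 contigs, as printed above) and 13 bases upstream for TRAV12D-2 (22 contigs).

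Complete joins with both ends usual were short contigs, and some repeated a productive chain. A contig was called short below the length that 5% of productive contigs of the chain and tissue fall under, between 506 and 510 bases. Among nonproductive CDR3s with both ends usual 77.8% (70.6 to 84.1) of TRA in lymph node were short, 79.2% (68.0 to 87.8) in skin, and 68.8% (61.0 to 75.8) and 65.9% (49.4 to 79.9) of TRB. The same CDR3 was found in a productive contig of the tissue for 26 of 158 and 49 of 72 TRA, and for 46 of 160 and 28 of 41 TRB. Since usual ends were defined from productive contigs, CDR3s with another kind of end could hardly match one, and 1 did, a TRA of lymph node. The most repeated case is the TRAV9D-2 chain with TRAJ9 of skin, shown because it accounts for much of the TRAV9D-2 excess there.
TRAV9D-2, TRAJ9 CDR3: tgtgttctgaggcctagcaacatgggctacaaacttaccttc
This CDR3 was in 14 productive contigs with a median of 701 bases and 2.5 UMIs, and in 8 nonproductive contigs with a median of 363.5 bases and 1.5 UMIs. None of the 8 barcodes had a productive TRA. Over all such repeats in skin, 35 of 49 TRA and 18 of 28 TRB contigs were in barcodes without a productive contig of that chain, against 13 of 27 and 7 of 46 in lymph node.

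A constant gene was annotated on 78.3% (74.1 to 82.0) of complete TRA joins with a CDR3 in lymph node and 84.1% (78.5 to 88.7) in skin, against 99.0% and 98.4% of productive contigs. Joins without a CDR3 had one in 97.8% and 96.7%.

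Nonproductive joins were shared by cells of the same clone. A clone was a set of cells with 1 productive TRB and 1 or 2 productive TRA contigs and identical CDR3 nucleotide sequences of the TRB and of the TRA with most UMIs. The nonproductive contigs were not used to define it. In skin, pairs of cells of 1 clone that both carried a complete nonproductive TRA join had the same V and J in 275 of 294 pairs (93.5%), against 17 of 8484 pairs of cells from different clones (0.200%). For complete nonproductive TRB joins this was 22 of 27 (81.5%) against 10 of 963 (1.04%). For a TRB J without a V the same J was shared in 82 of 122 pairs (67.2%) against 1280 of 6319 (20.3%). Pairs of a clone share cells, so these shares carry no interval.

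The lymph node had few expanded clones and hence few pairs. The match was 0 of 1 pair for TRA, 2 of 2 for complete TRB joins and 3 of 6 for a TRB J without a V. Among its clones with 2 or more such cells, clone 1 (3 cells) had a TRBV31 join to TRBJ1-4 in 2 cells, found in 1 of 3741 other barcodes.

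The largest skin clones show the pattern directly, and the productive CDR3s that define the first 4 are printed so that the cells can be recognised.
Skin clone 1 TRB: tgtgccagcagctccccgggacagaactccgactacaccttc
Skin clone 1 TRA: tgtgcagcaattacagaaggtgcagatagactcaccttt
Skin clone 2 TRB: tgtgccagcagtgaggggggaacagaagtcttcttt
Skin clone 2 TRA: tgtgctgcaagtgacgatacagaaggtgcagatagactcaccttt
Skin clone 3 TRB: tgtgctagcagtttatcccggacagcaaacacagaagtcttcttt
Skin clone 3 TRA: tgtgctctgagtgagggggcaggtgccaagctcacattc
Skin clone 4 TRB: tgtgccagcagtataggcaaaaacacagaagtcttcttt
Skin clone 4 TRA: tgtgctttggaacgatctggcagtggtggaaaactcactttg
Clone 1 held 88 cells, and 18 of them (20.5%, 12.6 to 30.4) carried a nonproductive TRAV6-7-DV9 join to TRAJ49, which 4 of 1898 other barcodes had (0.211%). Clone 2 held 23 cells, and 9 of them (39.1%, 19.7 to 61.5) carried TRAV13D-3 joined to TRAJ49, against 5 of 1963 other barcodes (0.255%). Clone 3 held 20 cells, of which 8 (40%, 19.1 to 63.9) carried TRAV13D-4 joined to TRAJ27 and 7 (35%, 15.4 to 59.2) a TRBJ2-1 without a V, against 0.254% and 4.88% of other barcodes. None of the 3 TRA joins had an annotated CDR3, and their median depth was 1, 2 and 2 UMIs. Most cells of each clone thus lacked a detected copy, and at 1 to 2 UMIs a missing contig cannot be told apart from one not captured.

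Clone 4, with 17 cells, carried a nonproductive TRB join of TRBV12-1 to TRBJ2-4 in 2 cells, with the same CDR3 in both and 0 of 1969 other barcodes with the join, which allows up to 0.152%.
Skin clone 4 nonproductive TRB: tgtgccagctctcccggactg
The sequence opens with the bases usual for a V and lacks a usual J end. Clone 5, also of 17 cells, had a TRBJ1-2 without a V in 7 cells (41.2%, 18.4 to 67.1) against 50 of 1969 other barcodes (2.54%), and a TRAV8N-2 join to TRAJ21 in 2.

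Between the tissues, 32 clones were found in both, and 8 of them had a nonproductive contig in each tissue. In 2 cases the tissues shared the V and J of a complete nonproductive TRA join, TRAV13D-3 with TRAJ56 and TRAV12D-2 with TRAJ6. In 4 further cases they shared the TRBJ of a contig without a V, which pairs of different clones also shared in 22.9% of pairs within lymph node and 20.3% within skin. A clone could give more than 1 case: those with TRBJ2-1 and TRBJ2-7 were in the clone with TRAV12D-2 and TRAJ6.

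The share of cells with a nonproductive contig was similar in clones of 1 cell and in expanded clones, with overlapping intervals. Those intervals count cells of a clone as separate, although the expanded skin cells came from 184 clones, the largest of 88 cells. They are therefore too narrow on the expanded side, and a difference was not tested. In skin it was 18.6% (15.3 to 22.2) of 516 cells against 17.9% (15.3 to 20.7) of 806 cells for TRA, and 22.7% (19.1 to 26.5) against 19.2% (16.6 to 22.1) for TRB. In lymph node it was 20.2% (18.6 to 21.8) of 2431 against 17.9% (11.5 to 26.1) of 117 for TRA, and 35.8% (33.9 to 37.8) against 33.3% (24.9 to 42.6) for TRB.

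The TRAJ position of nonproductive contigs was close to that of productive ones. TRAJ segments are numbered from the constant gene outwards, so a lower number lies nearer to it. The median TRAJ number was 31 (quartiles 21 and 40) for nonproductive and 30 (22 and 42) for productive contigs in lymph node, and 30 (21 and 43) and 31 (21 and 44) in skin.

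Within a cell the TRAJ segments of both TRA contigs lay near each other. In barcodes with exactly 1 productive and 1 nonproductive complete TRA join, the median distance was 7 TRAJ numbers (6 to 8, 506 barcodes) in lymph node and 6 (5 to 8, 243 barcodes) in skin. For contigs of different barcodes it was 14 in each tissue. Pearson's r across barcodes was 0.61 and Spearman's rho 0.61 in lymph node, and 0.69 and 0.67 in skin. These are descriptions over cells of 1 library, and in skin cells of a clone repeat the same pair.

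Cells with a pair of productive TRA contigs gave a similar distance in skin and a longer one in lymph node. The median was 9 (8 to 10, 373 barcodes) in lymph node, with r of 0.43, and 6 (5 to 8, 153 barcodes) in skin, with r of 0.68. In lymph node 66.2% (61.9 to 70.3) of pairs with 1 nonproductive contig lay within 10 TRAJ numbers, against 55.8% (50.6 to 60.9) of productive pairs. In skin these shares were 70.0% (63.8 to 75.7) and 70.6% (62.7 to 77.7). No pair had the same V and J. A barcode with 2 cells would hold unrelated TRA contigs, and how many such barcodes each class holds was not tested.

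**Figure D5:**
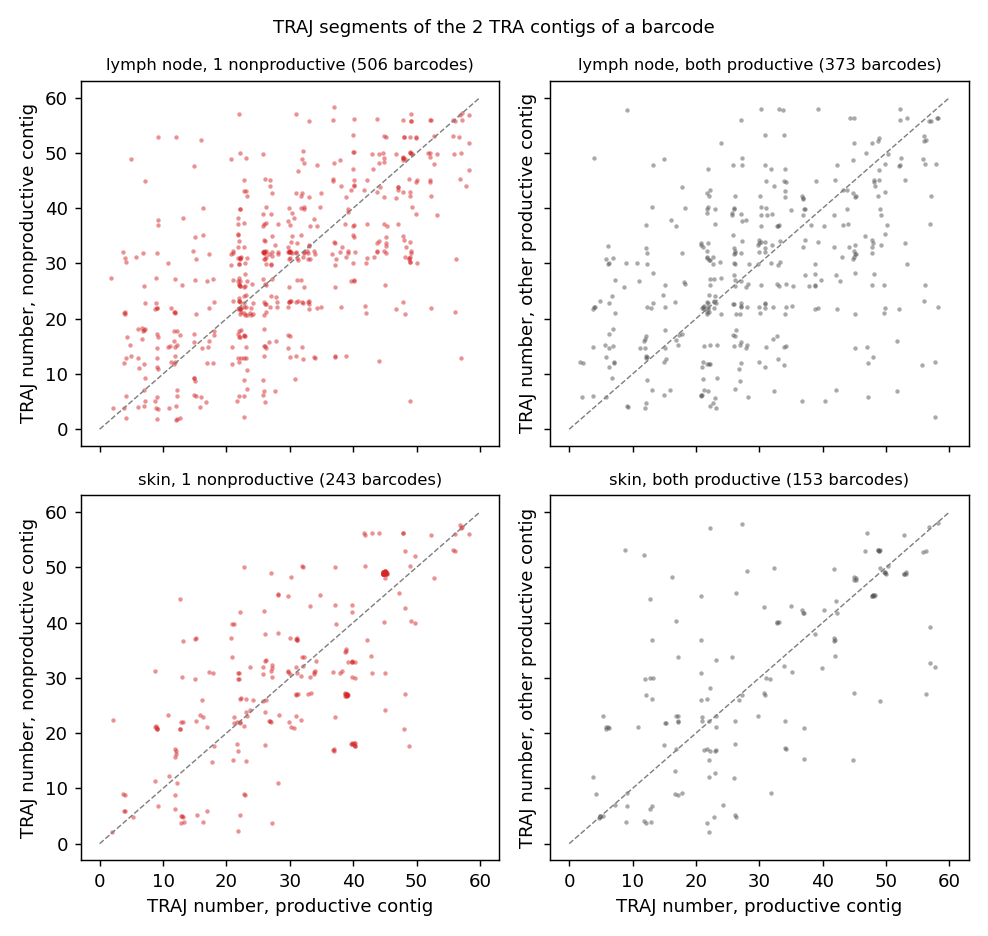
TRAJ number of the productive TRA contig (horizontal axis) against that of the other TRA contig of the same barcode (vertical axis), 1 point per barcode with a small random shift, for barcodes with 1 nonproductive contig (left) and with both productive (right), in lymph node (top) and skin (bottom). Points gather along the dashed line of equal numbers, with a median distance of 7 and 6 on the left and 9 and 6 on the right. In skin, cells of a clone repeat the same point, and different clones can share one, as clones 1 and 2 both paired TRAJ45 with TRAJ49.

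Lymph node cells with and without a nonproductive contig were compared in the gene table. It held 1611 cells with a nonproductive contig and 1353 with productive contigs only, at a median of 4673 and 4360 UMIs per cell, and with 11 and 13 productive receptor UMIs per cell in the receptor table. Of 9424 genes with at least 20 UMIs, 3.3% had a ratio whose interval lay above 1 and 2.46% one that lay below. Of the 19 genes of the nonsense-mediated decay list, all measured, 0 had an interval above no difference and 2 (10.5%) below, Smg8 at 8.01 against 11.9 CPM (log2 ratio -0.57, -1.08 to -0.05) and the decapping factor gene Dcp1a at 12.8 against 17.2 CPM (-0.43, -0.84 to -0.01). The list's median log2 ratio was 0.02 beside 0.01 over all genes. Upf1, the helicase at the centre of the pathway, was at 20.8 against 24.9 CPM (-0.26, -0.59 to 0.07).

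Of the receptor complex list 9 of 10 genes were in the table, with 3 above, 1 below and a median log2 ratio of 0.02. Trbc1, the constant gene of the TRBJ1 cluster, was higher in cells with a nonproductive contig, at 97.2 against 64.2 CPM (log2 ratio 0.60, 0.42 to 0.78). Trbc2 was at 168 against 182 CPM (-0.12, -0.24 to -0.0004), and the α constant gene Trac at 220 against 226 CPM (-0.04, -0.14 to 0.07). Most nonproductive contigs carry a constant gene themselves, so counts of these genes can include the RNA that defined the sides. The signalling chains Cd3g (0.06, 0.003 to 0.12) and Cd247 (0.12, 0.0005 to 0.25) were the others whose interval lay above 0, both only just. The recombination genes Rag1, Rag2 and Dntt were not among the genes of the table.

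The cluster of the productive chain also differed between the sides, and whether this accounts for the Trbc1 difference was not tested. A productive TRBJ1 was used by 40.1% (37.5 to 42.8) of 1383 cells with a nonproductive contig and 1 productive TRB, and by 26.8% (24.3 to 29.4) of 1204 cells without one. Among cells with a productive TRBJ1, Trbc1 was at 185 against 160 CPM (log2 ratio 0.21, -0.03 to 0.45). Among cells with a productive TRBJ2 it was at 37.2 against 26.0 CPM (0.52, 0.14 to 0.91). Trbc2 was at -0.05 (-0.33 to 0.23) and -0.03 (-0.18 to 0.12) in these classes.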

How the data were processed

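The authors deposited 1 receptor table per tissue, which lists assembled contigs with segments, CDR3 and whole-number UMI and read counts, with lanes pooled. They also deposited a lymph node gene table of UMI counts. Bowtie, RSEM and mm10 are listed, without versions, in the submitters' processing notes. The assembler and its rules for productive contigs are not given in the sources used here.

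The members and lists were chosen with earlier results of these data known. All contigs were of high confidence and in cell barcodes, and no filter was added. Contigs of chain Multi were left out of the comparisons. Shares and ratios carry exact 95% intervals for counting error (Clopper-Pearson for shares). Zeros are given with a floor of 3 counts. There were 0 columns of other samples.

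Named segments were the 5 V and 5 J with most nonproductive complete joins per chain and tissue, and the 3 highest and 3 lowest ratios per chain among those with at least 20 contigs and 1 direction in both tissues. Named clones were the 5 largest per tissue in which at least 2 cells carried a nonproductive contig, and named genes those of the lists with at least 20 UMIs. J segments without a V were outside this rule and chosen after their values were seen.

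CPM came from summed counts of the cells on each side. Positions are from GENCODE M21, which matched all segments except 1 joint TRBV name. Python 3.11.15, pandas 2.3.3 and scipy 1.17.1 were used. The interval code was tested on simulated data. Alternatives covered UMI minima, mixed barcodes, barcodes in both tables, distinct rearrangements and clone size.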

Additional observations from a re-analysis of the deposited data

Results flagged for a closer look

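Contigs of chain Multi, which are all outside the comparisons above, numbered 46 in lymph node and 28 in skin. Most joined a TRDV (δ chain) V segment to a TRAJ. A few in lymph node had a V and no J, 3 with TRDV1 and 1 with TRAV15D-1-DV6D-1. The Multi contigs of lymph node were diverse, with TRDV1 joined to TRAJ49 the most frequent, in 6 barcodes with 4 different CDR3s. In skin 26 of the 28 were TRDV1 joined to TRAJ57 with a single CDR3, in 26 barcodes and at a median of 3 UMIs.
Skin TRDV1, TRAJ57 CDR3: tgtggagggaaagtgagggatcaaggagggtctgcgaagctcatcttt
Of these barcodes 25 had a productive TRB, 24 with the same CDR3 of TRBV3 and TRBJ2-5, and 19 had a productive TRA.
Skin TRBV3, TRBJ2-5 CDR3: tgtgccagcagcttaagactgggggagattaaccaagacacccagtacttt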

How the results depend on the processing

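Of 290 values recomputed under an alternative, 241 stayed within counting error or within 1.5 times the main count, 48 moved and 1 reversed. The cause was not tested unless stated. With contigs of at least 2 UMIs, the nonproductive share was 14.4% and 13.3% for TRA (lymph node, then skin) and 24.5% and 15.4% for TRB. Barcodes with both kinds were 11.9%, 8.52%, 27.8% and 11.3%, full-length contigs 90.4% (TRA, lymph node), 22.7% and 22.5% (TRB), and contigs with a V and a J 23.2% and 22.8% (TRB). The ratio of nonproductive to productive median UMIs was 0.5 (TRA, lymph node), 0.571 and 0.75 (TRB), where it was 0.667, 0.429 and 0.5. The nonproductive TRA contig of skin was weaker in 52.8%, and matching TRB joins within skin clones were 100%. Without barcodes of 2 or more productive TRB the lymph node TRB share was 30.1%. In barcodes of the gene table it was 31.2%, with both kinds in 38.5% (TRB) and 21.4% (TRA) and a UMI ratio of 0.375. Each distinct rearrangement counted once gave nonproductive shares of 30.2% (skin TRA), 21.7% and 31.4% (TRB). The lymph node then no longer exceeded skin for TRB, but this count merges contigs without a V from different cells, as described above. Counting in this way left 0 TRBJ segments 1.5-fold apart, where there were 2, and all contigs with a J gave 7. It also turned the TRAJ shift of skin from -1 to 3. Reads in place of UMIs gave ratios of 0.531 (TRA, lymph node), 0.488 and 0.570 (TRB).

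Chosen after seeing the data, complete nonproductive joins alone gave shares of 19.0% (TRA, lymph node), 10.2% and 6.86% (TRB), both kinds in 10.6% and 5% for TRB, a UMI ratio of 0.286 and the weaker contig in 84.0% for lymph node TRB. Without nonproductive contigs that repeat a productive CDR3 the skin TRA share was 17.6%. Without the largest clone matching TRA joins were 99.2%. Restricting clones to at least 5 cells gave no lymph node value. Lanes were pooled in the deposited tables and could not be left out. No paired analysis was possible because each tissue is 1 library. Depth limits the detection of contigs with 1 to 2 UMIs.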
